A study of Mus musculus with 11 samples.

Results

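Trpm3 encodes a calcium-permeable cation channel of the melastatin branch of the transient receptor potential (TRP) family. The channel is opened by heat and by the neurosteroid pregnenolone sulfate, needs the membrane lipid PIP2, and is inhibited by the beta-gamma subunits of G proteins. In the eye it is known from the retinal pigment epithelium, Müller glia and some inner retinal neurons, and an intron of the gene hosts the microRNA miR-204. The non-coding features listed inside this gene are described here. They were chosen by position, as all features that overlap a window of chromosome 19 from shortly before the first Trpm3 start to position 23000000 (mm10). These are 11 of the 36097 unique features of the deposited table.

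The retinas were those of wild-type mice (5 libraries) and of mice with an Nrl knock-out (6 libraries), all at postnatal day 21. NRL is the factor that photoreceptors need to become rods, and in its absence they resemble cones. Per the labels, the RNA sequenced had been depleted of poly(A) transcripts, and the reads were stranded, single-end and 50 bp long. Strain, sex, the knockout allele and the animals behind each library are not given in the labels, so p-values measure the spread between libraries, which may in part be technical. Values are read counts divided by a size factor per library (normalised counts). The listed features held 3238184 to 4876429 reads per library, and 1 read was worth 0.758 to 1.37 normalised counts. At Nrl itself the antisense feature MSTRG.28375 held 33.3 to 55.5 normalised counts in wild-type and 0 to 0.758 in knockout. In bulk retina, fewer cells of a type and less RNA per cell cannot be told apart.

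All 11 features lie on the minus strand, opposite to Trpm3, which runs along the plus strand from 22139046 to 22995410 (GENCODE M21). Of the 966 features of chromosome 19, 58.5% are on the minus strand. None of the 11 touches an annotated Trpm3 exon, so all are intronic and antisense, and 0 of them overlap Mir204. Together they cover 4644 bp, which is 0.542% of the gene. Their lengths run from 114 to 1026 bp with a median of 260 bp, against a median of 236 bp over the whole table. The sources used here do not say whether reads were counted by strand. Reads of these features and of unspliced Trpm3 RNA therefore cannot be told apart with certainty.

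The positions fall into 2 parts. A run of 7 features, MSTRG.45244 to MSTRG.45251, occupies 12139 bp (22435603 to 22447741) and ends 442 bp before the second of the annotated Trpm3 start sites. That start, at 22448183 to 22448232, is used by 7 of 24 Trpm3 transcripts. The other 4 features stand alone. MSTRG.45252 (22656488 to 22656852) is 35749 bp before the third start, MSTRG.45254 (22851942 to 22852109) lies 101270 bp past Mir204, MSTRG.45255 spans 22915699 to 22915850, and MSTRG.45256 (22965051 to 22965912) sits in an intron near the 3′ end of the gene. MSTRG.45256 is 12380 bp before the next Trpm3 exon and 12318 bp past the 3′ end of the long non-coding RNA gene C330002G04Rik, which runs along the same strand toward it.

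The run before the second start shares its strand with the annotated antisense RNA Gm27151. GENCODE places Gm27151 at 22438520 to 22448865 and RefSeq at 22436053 to 22448582. The 4 features MSTRG.45248 to MSTRG.45251 lie inside the GENCODE gene without touching its exons. RefSeq's longer model also takes in MSTRG.45245 and MSTRG.45246, and MSTRG.45248 overlaps the pseudogene Nsa2-ps1 as well. By RefSeq the Gm27151 start is 374 bp downstream of the Trpm3 start on the opposite strand. The RefSeq antisense RNA therefore crosses the Trpm3 promoter and then spans 6 of the 7 features. MSTRG.45244 lies past its annotated end. The stretch before the second Trpm3 start is shown because it belongs to both genes. It runs from chr19:22447958-22448182, plus strand (RefSeq, GRCm38.p6). Its capitals mark the 165 bases (22447978 to 22448142) that are also a GENCODE exon of Gm27151 on the other strand. The GENCODE transcript used for this exon starts with it, and so does not cross the Trpm3 start.
Trpm3 second start: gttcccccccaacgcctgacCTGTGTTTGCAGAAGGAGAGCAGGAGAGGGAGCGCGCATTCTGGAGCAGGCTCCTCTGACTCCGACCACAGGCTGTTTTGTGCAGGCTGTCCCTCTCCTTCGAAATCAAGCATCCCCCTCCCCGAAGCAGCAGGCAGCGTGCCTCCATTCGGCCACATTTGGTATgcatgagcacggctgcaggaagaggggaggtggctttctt
The start region of Gm27151, chr19:22448533-22448832 on the minus strand, is shown because the RefSeq RNA that spans 6 of the 7 features starts there. Its capitals mark the 50 bases from the RefSeq start onward.
Gm27151 start: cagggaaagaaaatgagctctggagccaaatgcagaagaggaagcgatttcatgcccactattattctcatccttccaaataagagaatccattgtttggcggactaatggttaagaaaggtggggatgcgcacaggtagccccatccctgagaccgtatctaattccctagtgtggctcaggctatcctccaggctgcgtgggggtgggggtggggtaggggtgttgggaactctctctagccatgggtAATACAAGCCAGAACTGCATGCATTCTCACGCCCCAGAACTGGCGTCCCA

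The 4 motifs of retinal and pigment cell factors below were searched on both strands of these stretches. The motifs were TAATCC, the core read by the OTX2 and CRX homeodomain factors, TGCTGA, the core read by the MAF family to which NRL belongs, and CATGTG and CACGTG, both bound by the pigment cell factor MITF. Neither stretch held any of them. Over the same 300 bases, 7.06%, 19.5%, 14.2% and 7.15% of 32851 RefSeq promoters hold them. Over the first 225 bases the shares are 5.76%, 14.7%, 11.3% and 5.16%.

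The microRNA of this locus is given for orientation, with the seed (bases 2 to 8) in capitals. Its closest relative, miR-211, is hosted by Trpm1, another channel gene of the family. The seed is shared by 3 of 1738 mature mouse microRNAs in the RefSeq table, these included.
mmu-miR-204-5p: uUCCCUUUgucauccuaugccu
mmu-miR-211-5p: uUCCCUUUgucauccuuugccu
The miR-204-5p bases lie at chr19:22750610-22750631, plus strand, and no listed feature covers them on either strand.

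MSTRG.45256, the feature with the highest mean in wild-type, fell in the knockout. In knockout its mean (22.8 normalised counts) was below that of MSTRG.45249 (24.0). In wild-type libraries 1 to 5 MSTRG.45256 held 87.8, 89.4, 68.7, 63.8 and 54.5 normalised counts. In knockout libraries 1 to 6 it held 18.7, 39.4, 22.4, 28.8, 9.86 and 17.6. All 6 knockout libraries lay below the lowest wild-type library. The means were 72.8 ± 15.3 (SD, n = 5) and 22.8 ± 10.2 (SD, n = 6), 3.20-fold higher in wild-type, from 353 and 145 reads. The log2 difference, on log2(normalised count + 1), was -1.72 (SE 0.27, 95% interval -2.28 to -1.17, limma adjusted p = 1.05e-05). An exact two-sided permutation test over libraries gave p = 0.00433. Among all 2695 features called lower in the retina, 46.9% fell further than MSTRG.45256.

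**Figure D1:**
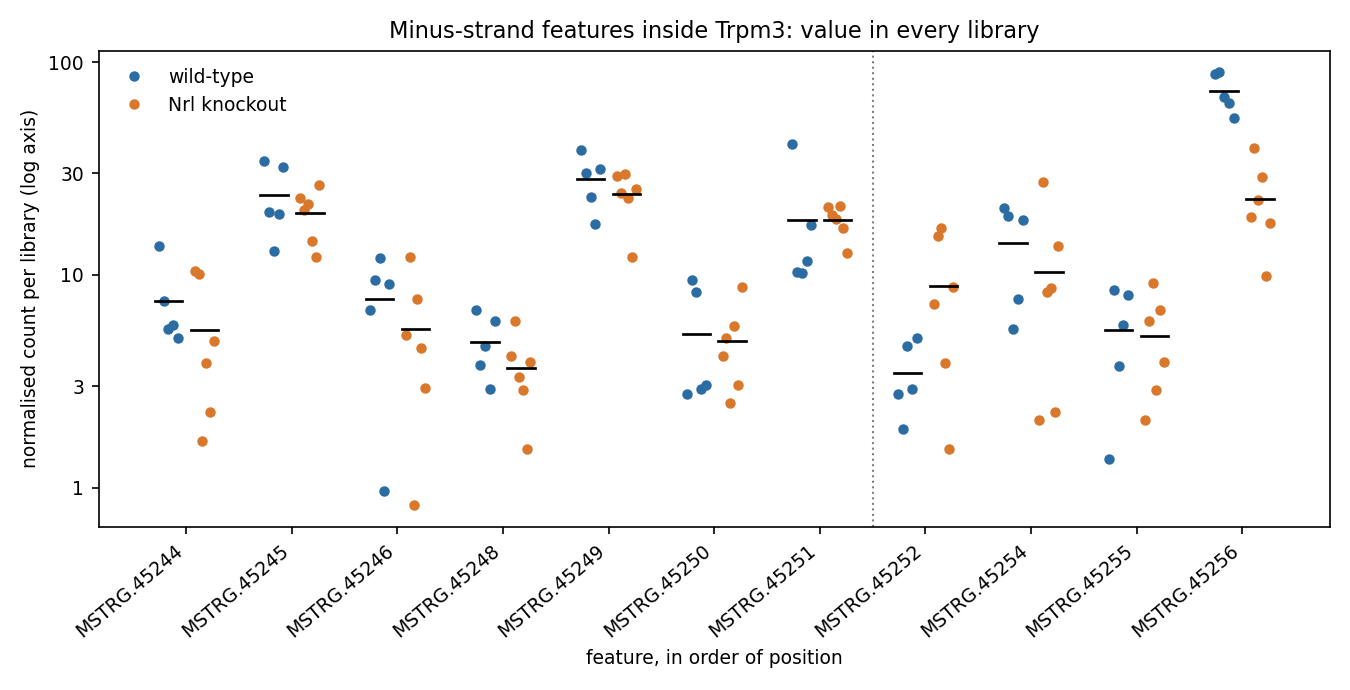
Normalised count (log axis) of each of the 11 features in each library, in order of position, with wild-type in blue, Nrl knockout in orange and the group mean as a black bar. The dotted line divides the 7 features before the second start from the other 4. At MSTRG.45256 the lowest wild-type library (54.5) is above the highest knockout library (39.4), and at the other 10 features the groups overlap.

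MSTRG.45256 was the 1 feature called among the 10 tested, and none was called higher. Over all 21395 tested features 28.1% were called, 12.6% lower and 15.6% higher, so 1 of 10 is no excess. On chromosome 19 the share was 39.5%. Of features that, like these, lie within an intron and antisense to a coding gene, 34.4% were called. The groups did not overlap in 1 of the 10, against 20.2% of all tested features (9.13% with the knockout lower). At unadjusted p under 0.05 the count was also 1. The median log2 difference of the 10 was -0.23, beside -0.020 over all tested features. Below 0 were 8 of the 10 estimates and 51.5% of those of all tested features. Of the 8, 5 belong to the run before the second start, and MSTRG.45250 (-0.026) and MSTRG.45255 (-0.034) were close to 0. The eleventh feature, MSTRG.45248, stayed under the required mean of 5 normalised counts and was not tested (4.84 ± 1.62 in wild-type, 3.64 ± 1.51 in knockout).

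**Figure D2:**
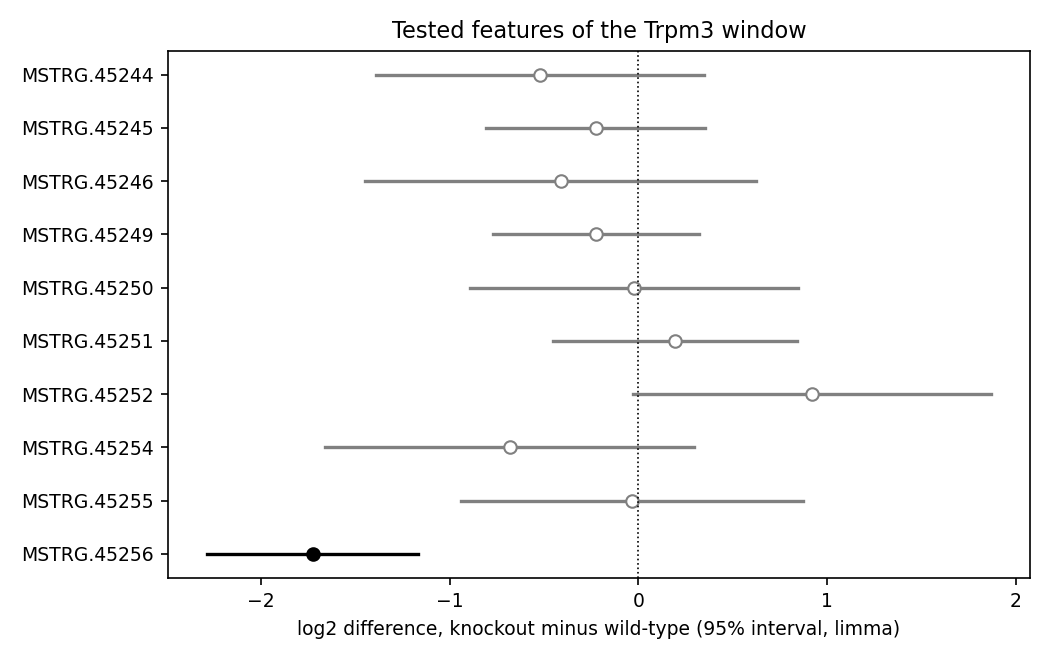
Log2 difference (knockout minus wild-type) of the 10 tested features with 95% intervals from limma, with a filled point where the adjusted p was below 0.05. The interval of MSTRG.45256 runs from -2.28 to -1.17, and the other 9 intervals include 0.

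The 3 most abundant features of the run before the second start overlapped between the groups, and none was called. MSTRG.45249 (22443841 to 22444866), in an intron of Gm27151, held 38.4, 30.1, 23.2, 17.4 and 31.3 normalised counts in wild-type and 29.1, 24.2, 29.9, 23.0, 12.1 and 25.4 in knockout. Its log2 difference was -0.22, with a 95% interval of -0.77 to 0.32. MSTRG.45245 (22436338 to 22437196), at the far end of the RefSeq Gm27151 model, held 23.7 ± 9.15 (SD, n = 5) and 19.6 ± 5.36 (SD, n = 6), a log2 difference of -0.23 (interval -0.81 to 0.35). As ratios of knockout to wild-type, these intervals span 0.587 to 1.25 for MSTRG.45249 and 0.571 to 1.28 for MSTRG.45245.

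MSTRG.45251 (22447216 to 22447741) is the feature nearest to the second start. It held 41.1 normalised counts in wild-type 1, and 10.4, 10.2, 11.6 and 17.1 in wild-type 2 to 5. The knockout libraries held 20.8, 19.2, 18.3, 21.1, 16.7 and 12.7. Wild-type 1 was above every other library, and wild-type 2 to 4 were below all of the knockout libraries. The log2 difference was 0.19 (interval -0.45 to 0.84, limma adjusted p = 0.716). Without wild-type 1 it was 0.53 (adjusted p = 0.165), from 12.3 ± 3.27 (SD, n = 4) to 18.1 ± 3.12 (SD, n = 6).

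The low features of the run gave wide intervals. MSTRG.45244 (22435603 to 22435782) averaged 7.53 normalised counts in wild-type and 5.53 in knockout, with a log2 difference of -0.52 (interval -1.39 to 0.35). MSTRG.45246 (22438245 to 22438504) averaged 7.68 and 5.55, with a log2 difference of -0.41 (interval -1.45 to 0.63). MSTRG.45250 (22446812 to 22446943) averaged 5.29 and 4.88, with a log2 difference of -0.026 (interval -0.89 to 0.84). Each rested on 58 to 73 reads over 11 libraries, and changes of either sign within these intervals are not excluded.

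Summed over the 7 features, the run held 144, 90.3, 77.0, 60.9 and 103.9 normalised counts in wild-type and 96.7, 96.9, 78.0, 78.7, 52.3 and 84.9 in knockout. The mean was 95.2 ± 31.6 (SD, n = 5) in wild-type and 81.3 ± 16.4 (SD, n = 6) in knockout, a knockout to wild-type ratio of 0.853. Wild-type 1 was the highest library and knockout 5 the lowest. Without wild-type 1 the ratio was 0.979. Wild-type 1 held the highest wild-type value of 6 of the 11 features and knockout 5 the lowest knockout value of 5. A read was worth the most normalised counts in wild-type 1 (1.37) and the fewest in knockout 5 (0.758). With group means removed, the 3 most abundant features of the run correlated with each other at Pearson r of 0.474 to 0.737 (Spearman rho 0.482 to 0.827) over the 11 libraries. Over all 21 pairs in the run the range of r was -0.566 to 0.783. These points share libraries and depth.

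**Figure D3:**
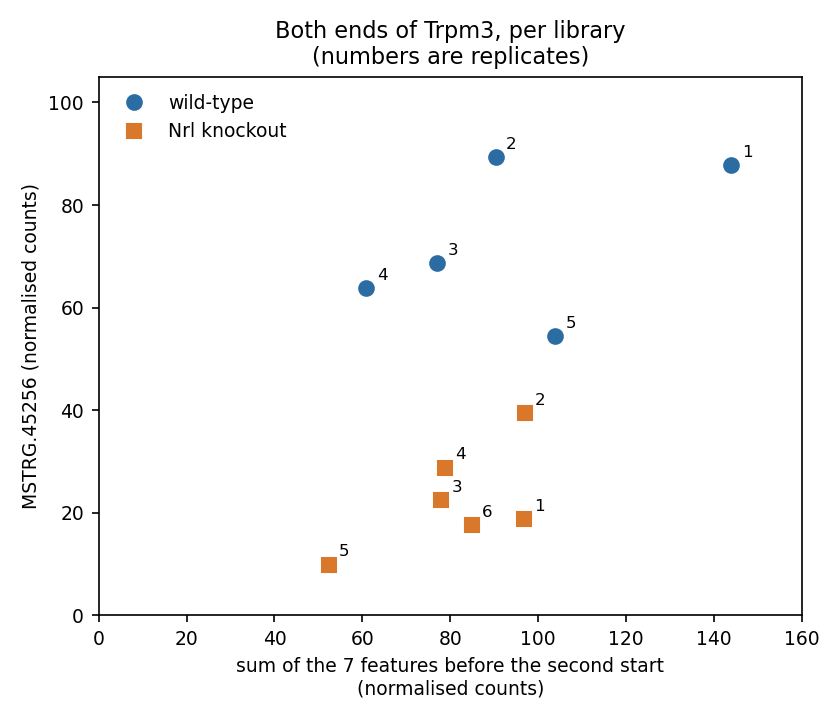
MSTRG.45256 (vertical axis) against the summed 7 features before the second start (horizontal axis), both in normalised counts, 1 point per library, numbered by replicate. Along the horizontal axis the groups overlap (60.9 to 144 in wild-type, 52.3 to 96.9 in knockout), while along the vertical axis they do not.

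Set against this run in the same library, MSTRG.45256 held 0.610, 0.990, 0.892, 1.05 and 0.524 of its summed count in wild-type 1 to 5. In knockout 1 to 6 it held 0.194, 0.406, 0.287, 0.366, 0.188 and 0.207. The ratios of the groups did not overlap, which is not independent of the separation of MSTRG.45256 itself, the numerator. As a share of all 11 features, MSTRG.45256 made up 28.7% to 45.2% in wild-type and 13.5% to 23.4% in knockout. The ratio divides out a library's scale, and the 2 counts in it come from 1 library.

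Of the lone features, MSTRG.45252 had the highest positive estimate of the 10, and it was not called. It held 2.74, 1.88, 4.64, 2.90 and 5.04 normalised counts in wild-type. The knockout libraries held 7.28, 15.1, 16.6, 3.84, 1.52 and 8.79. In 4 of 6 knockout libraries it exceeded every wild-type library, and in knockout 5 it was the lowest of all. The log2 difference was 0.92 (interval -0.029 to 1.87, limma adjusted p = 0.153) from 17 and 57 reads. The feature reached the mean of 5 only through its knockout values. Leaving out knockout 5 brought it past the threshold (log2 difference 1.26, adjusted p = 0.0244). With any other library left out, the limma adjusted p was 0.110 to 0.337.

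MSTRG.45254, between Mir204 and the 3′ end of Trpm3, varied widely among the knockout libraries. It held 20.6, 18.8, 5.57, 7.74 and 18.2 normalised counts in wild-type and 2.08, 27.3, 8.30, 8.64, 2.28 and 13.7 in knockout. Both the highest and the lowest value were in knockout libraries, and the log2 difference was -0.68 (interval -1.66 to 0.29, limma adjusted p = 0.330). MSTRG.45255 averaged 5.49 ± 2.99 (SD, n = 5) and 5.15 ± 2.67 (SD, n = 6), a log2 difference of -0.034 (interval -0.94 to 0.87).

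Per kilobase of length the order of the features differed between the groups. In wild-type the means of MSTRG.45256 and MSTRG.45254 were 84.5 and 84.4 normalised counts per kb. The 7 features of the run held 27.4 to 42.5 per kb, MSTRG.45255 held 36.1 and MSTRG.45252 held 9.43. In knockout MSTRG.45254 was highest at 61.7 per kb, and MSTRG.45256, at 26.4 per kb, was within the 21.3 to 37.0 per kb of the run. MSTRG.45254 is 168 bp long and its values per library spread widely, so its place in this order is uncertain. MSTRG.45252 stood at 24.3 per kb in knockout.

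**Figure D4:**
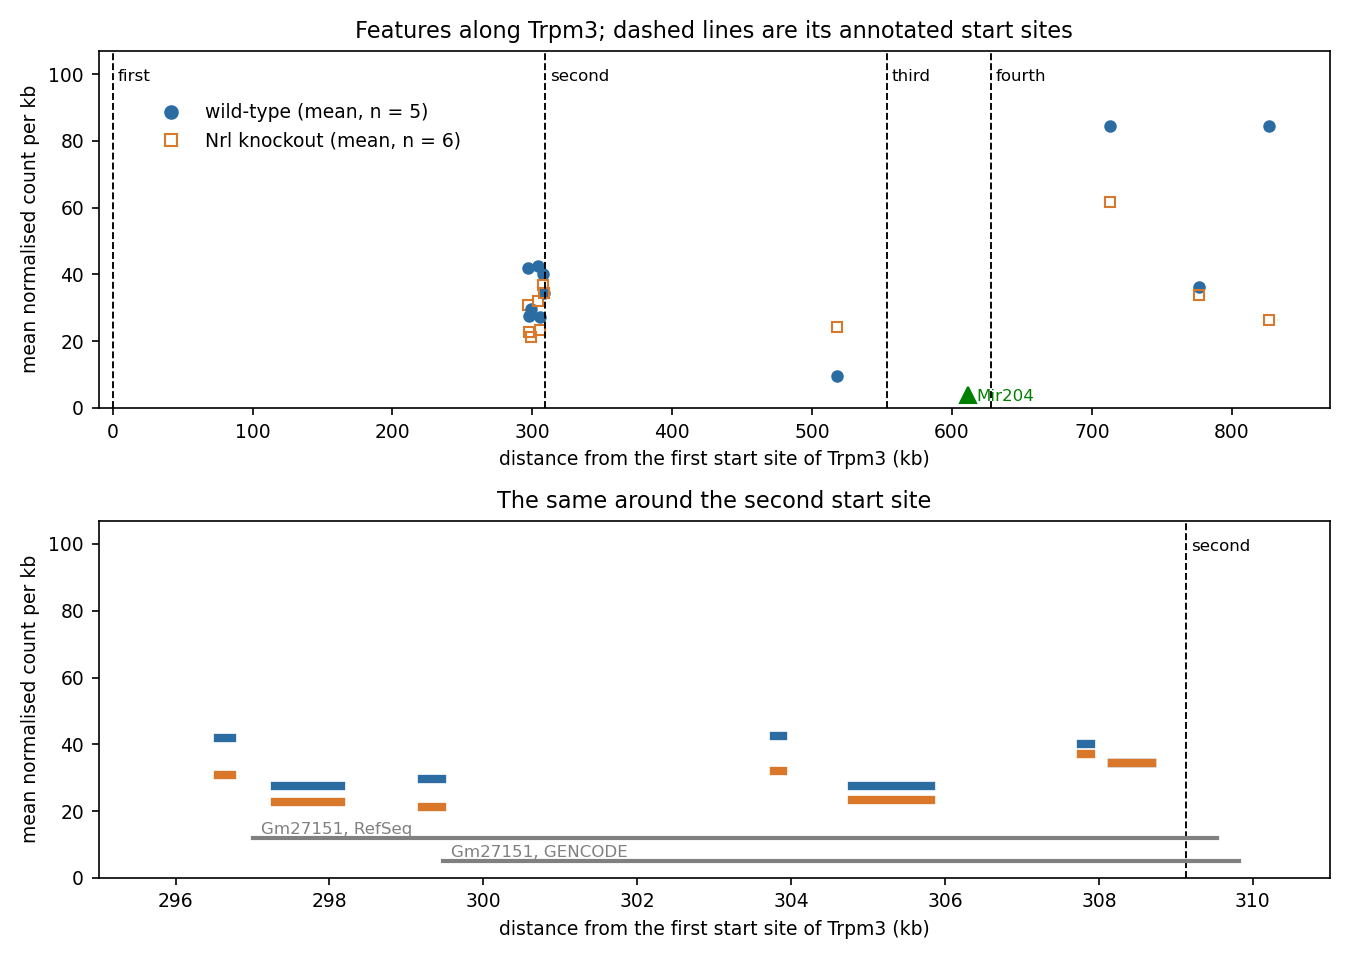
Mean normalised count per kb of each feature against its distance from the first start of Trpm3 in kb, over the whole gene (top, points) and around the second start (bottom, bars as long as the features), with start sites as dashed lines. In wild-type the 2 highest levels, 84.4 and 84.5 per kb, lie past Mir204. In the lower panel the orange bar of MSTRG.45251 covers its blue bar, at 34.5 and 34.4 per kb.

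The features belong to 3 chromosomal domains of the deposited table. The first holds the 7 features of the run with MSTRG.45252 and MSTRG.45254, 9 in all, and no other feature. MSTRG.45255 is the single feature of an interval between domains. MSTRG.45256 is in the next domain, with 12 features beyond Trpm3. None of the 3 lists a changed mRNA, Trpm3 included, which holds for 57.8% of the 2920 domains. The sources used here do not say how the domains and mRNA lists were made.

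Features within 1 Mb on either side of the window gave 3 calls. This is no excess over the 28.1% called among all tested features or the 39.5% on chromosome 19. On the left 6 were tested and 2 were called, both higher. On the right 10 were tested and 1 was called, lower. The latter, MSTRG.45262 (23134923 to 23137719, minus strand), shares the domain of MSTRG.45256 and is antisense to the gene 2410080I02Rik near Klf9, which encodes a Krüppel-like transcription factor. Its mean was 245 ± 59.7 in wild-type and 152 ± 45.1 in knockout (SD), and the values overlapped. It fell by 0.70 on the log2 scale (SE 0.21, limma adjusted p = 0.00984). The tested features between MSTRG.45256 and MSTRG.45262 are MSTRG.45257 and MSTRG.45259, which had log2 differences of -0.15 and 0.71 and were not called. The 2 left features, MSTRG.45222 and MSTRG.45223, named after their values were seen, are at AC106834.1 and had log2 differences of 2.62 and 2.04. MSTRG.45222 averaged 0.922 in wild-type and 10.4 in knockout, so it reached the mean of 5 only through its knockout values. MSTRG.45234 near Abhd17b, the most abundant on the left, held 110 ± 12.9 and 114 ± 14.0.

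**Figure D5:**
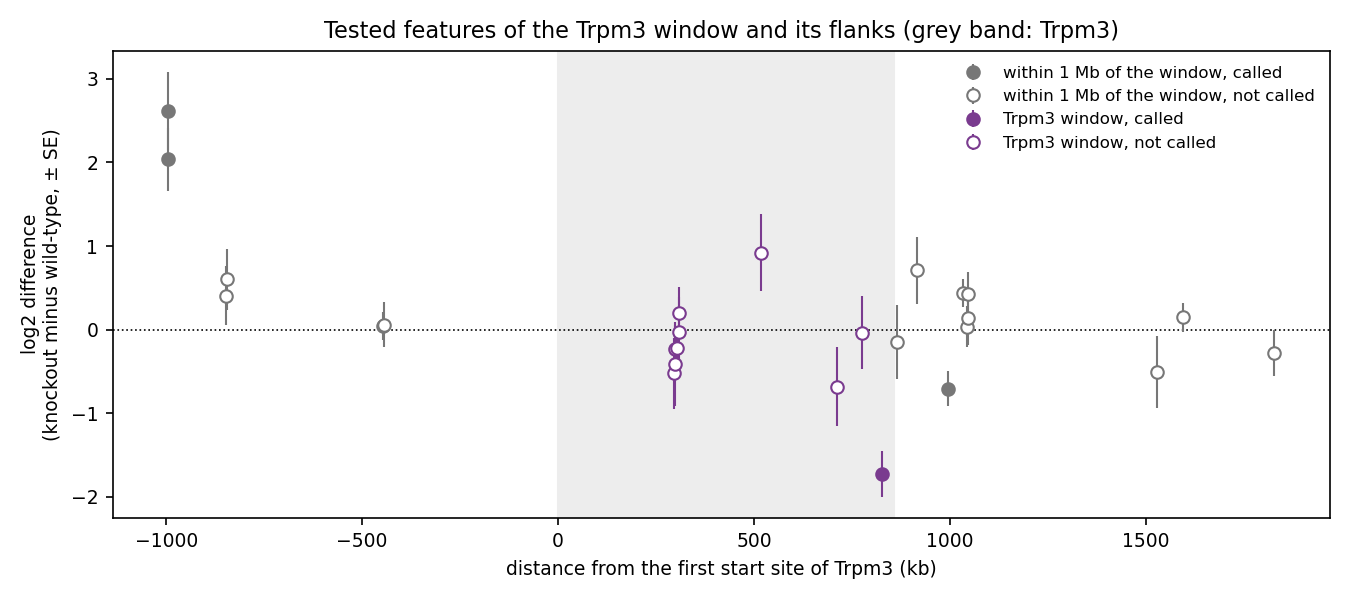
Log2 difference (± SE) of the tested features of the Trpm3 window (purple) and of those within 1 Mb of it (grey) against distance from the first Trpm3 start in kb, with filled points where called. The called features are MSTRG.45256 (-1.72), MSTRG.45262 on its right (-0.70) and, far to the left, MSTRG.45222 and MSTRG.45223 (2.62 and 2.04).

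Features elsewhere with a profile over the 11 libraries like that of MSTRG.45256 were found by Pearson r of the log2 values. The closest was MSTRG.39656 (chromosome 17, 49230599 to 49231368; r = 0.974), which is intergenic with Lrfn2 as its nearest coding gene, 133011 bp away. Next was MSTRG.39514 (chromosome 17, 46915645 to 46917635; r = 0.972), antisense to Prph2, the gene of the photoreceptor disc protein peripherin. It held 245 ± 56.4 normalised counts (SD, n = 5) in wild-type and 83.3 ± 22.6 (SD, n = 6) in knockout. The others were MSTRG.78535 antisense to Bckdha (r = 0.972), MSTRG.20971 antisense to Tmem229b (r = 0.971) and MSTRG.91224 with Ncam1 as its nearest coding gene (r = 0.969). A total of 502 of 21385 features had r above 0.9. These points share libraries and the difference between genotypes.

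At 6 of the 27 other TRP genes 9 antisense features were tested. Of these 1 rose, 2 fell and the other 6 did not pass the test, a share near the 28.1% of all tested features and the 34.4% of intronic antisense features. The median log2 difference of the 9 was 0.0079. At Trpm1, the channel through which ON bipolar cells answer light and the host of miR-211, all 3 features were uncalled. The most abundant of them, MSTRG.80652, held 79.3 ± 10.8 and 86.8 ± 19.7. Calls named after their values were seen were MSTRG.93514 at Trpc1 (-4.12) and MSTRG.9675 at Trpm2, which went from 11.9 to 35.4 (1.56). No feature was listed over Mir211.

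From 26 G protein, phospholipase and PIP2 kinase genes, listed by family as possible signalling partners of TRPM3, 5 had tested features, 13 in all. Of these 3 rose and 4 fell, and their median log2 difference was 0.29. Over all tested features 15.6% were called higher and 12.6% lower. The 13 features sit at 5 genes, and features of 1 gene are not independent. Whether these genes differ from the rest was not tested. MSTRG.65738, on the strand opposite to Gnb1, fell, with means of 597 ± 133 in wild-type and 1.34 ± 1.05 in knockout (SD). Gnb1 encodes a G protein beta subunit that rods use in transducin. MSTRG.10077 is opposite to Pip5k1c, the gene of a kinase that makes PIP2, and on the same strand as the gene Gm16315. It held 242 ± 54.9 and 299 ± 40.8 and was not called. Neither feature is a direct measure of the Gnb1 or Pip5k1c mRNA.

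Cells known to express Trpm3 left few features by which to follow them. Of 20 pigment epithelium genes 1, the retinol transporter gene Stra6, had a tested feature, MSTRG.91722, which fell by 1.28 on the log2 scale, with means of 26.1 ± 12.4 in wild-type and 9.77 ± 3.54 in knockout (SD). Of 15 Müller glia genes 1, Car2, had 2, of which 1 fell. The summed level of the Car2 features was 23.3 to 43.3 in wild-type and 6.83 to 22.2 in knockout. The single Stra6 feature ranged from 12.1 to 42.5 in wild-type and from 3.79 to 14.6 in knockout. The called features of both lists were lower in knockout. All of these features lie on the strand opposite to Stra6 or Car2, so they are no direct measure of those mRNAs. The part of pigment epithelium or Müller glia in the fall of MSTRG.45256 was not tested. Defining pigment epithelium markers such as Rpe65 and Best1 had no tested feature. Ciliary and choroidal genes and vascular genes had 0 listed features. Of 16 features at bipolar genes 2 rose, 1 fell and 13 were not called. At rod genes 22 of 32 features fell and 4 rose, and at cone genes 17 of 26 rose and 2 fell. Over all tested features 28.1% were called, 12.6% lower and 15.6% higher, so the calls at bipolar genes were no excess.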

How the data were processed

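RNA of mouse retina was measured in 5 wild-type and 6 Nrl knockout libraries. The deposited signal columns are DESeq2-normalised read counts of the authors, per the file headers and table name. The authors' own comparison gives a log2 fold change, a test score ("stat") and a p-value before and after adjustment, per the file headers. The sign of the score is opposite to that of the log2 fold change in 100% of lines, and the score was not used. TopHat2 2.0.10, Cufflinks 2.2.1 and Cuffdiff, with mm9 and mm10, are listed without roles in the submitters' processing notes. The sources used here do not name the counting tool.

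With a tolerance of 0.001, 100% of values were whole multiples of 1 read, which gave the read counts. Feature starts in the table count from 0 (209 starts matched a GENCODE M21 exon start after adding 1, 22 without) and are printed counting from 1. Of 36180 lines, 83 repeat a feature and were used 1 time.

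The main test was limma 3.58.1 (trend, robust; R 4.3.3), two-sided, on log2(normalised count + 1) of features with a mean of at least 5, Benjamini-Hochberg adjusted over all tested features, with calls below 0.05. It was checked on simulated counts. Among the alternatives, edgeR 4.0.16 and DESeq2 1.42.0 were run on recovered reads of 9 libraries. Wild-type 5 and knockout 2, in which 1 read is worth 1.01 normalised counts, were not used there. These 2 libraries hold the lowest wild-type and the highest knockout value of MSTRG.45256 (54.5 and 39.4), so leaving them out favours its call. Every window feature with a mean of at least 5 is named, with the 5 most similar features elsewhere. For the gene lists, abundant features are named in part, and the bipolar, rod and cone lists are given by counts alone. A feature of the TRP channel list is not reported here. The gene lists hold TRP channels, possible TRPM3 signalling partners, and miR-204 and miR-211 loci (3 tested features, all at Trpm1 and uncalled). They also hold markers of pigment epithelium, Müller glia, ciliary and choroidal, bipolar, rod, cone and vascular cells. Members and lists were chosen with earlier results of these data known.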

Additional observations from a re-analysis of the deposited data

Results flagged for a closer look

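In 2 of 26 groups of values examined (11 features and 2 sums, each in wild-type and knockout), 1 library stood apart from the rest of its group, and chance alone flags about 5% of such groups. Both flags concern wild-type 1. MSTRG.45251, the feature nearest to the second Trpm3 start, held 41.1 normalised counts there, and the next wild-type library held 17.1. MSTRG.45244, at the other end of the same run of features, held 13.7, and the next held 7.53. A read is worth 1.37 normalised counts in wild-type 1, the most of any library. In reads, MSTRG.45251 held 30 there and 17 in wild-type 5, and MSTRG.45244 held 10 there and 8 in wild-type 2.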

How the results depend on the processing

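MSTRG.45256 was called under all 22 alternatives, with log2 differences of -2.0 to -1.55 over the other settings, -1.90 to -1.52 when each library was left out in turn, and adjusted p of 6.00e-11 to 0.000106. In the authors' deposited table its log2 fold change is -1.69 (adjusted p = 2.70e-08). It was the single call of the window in all but 1 alternative. The number of called window features was 1 to 2 when each library was left out, with 0 to 1 higher. The addition was MSTRG.45252 without knockout 5, a feature that reached the mean of 5 only through its knockout values. The knockout to wild-type ratio of the summed 11 features was 0.672, and 0.613 to 0.735 with a library left out. Over all features, a mean of at least 20 left 3350 calls, 1722 higher and 1628 lower, because fewer features were tested. 2 uncalled features changed sign. MSTRG.45250 ranged from -0.19 to 0.20 with a library left out. MSTRG.45255 ranged from -0.36 to 0.14, and was 0.054 in edgeR, 0.026 in DESeq2, 0.063 in limma on the same 9 libraries and 0.0067 with a replicate block; the cause was not tested. The replicate block, in which knockout 6 has no partner, gave -1.68 for MSTRG.45256 and 6916 calls over all features; same-numbered libraries correlated at 0.0014 to 0.294, so the numbers were not taken to pair them. Features of 46 to 74 reads limit what can be seen of small changes.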
